A study of Mus musculus with 32 samples.

Results

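The antiviral effectors of the type I interferon response were taken as a list of 45 mouse genes, matched by symbol in a table of tags per RefSeq transcript, with the transcript of the highest mean count kept for each gene. All 45 were found among the 25067 genes of the table. All 45 were also among the 11279 genes tested, which had a mean above 1 RPKM (tags per kilobase of transcript and 1000000 tags of the library) in at least 1 group of libraries. Of these, 43 lay above that level in unstimulated cells, and Oasl1 and Slfn1 only after stimulation.

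RNA sequencing was done on macrophages grown from mouse bone marrow (BMDM), exposed to bacterial lipopolysaccharide (LPS), a ligand of the receptor TLR4. Cells from mice without the nuclear receptor Nur77 (gene Nr4a1) were compared with cells from wild-type littermates. The 8 groups were BMDM-WT and BMDM-Nur77-KO after 0, 1, 5 and 18 h of LPS at 100 ng/ml, with 4 replicate libraries in each, 32 in all. All mice were males on the C57Bl6/J background aged 6 to 12 weeks, and all cells had been differentiated for 7 days in medium conditioned by L929 fibroblasts. The knockout was of the whole body: mice with a floxed Nr4a1 had been crossed with a CMV-Cre strain and the line was then bred without the Cre, although the labels still name this genotype "cre". How many animals the 4 replicates came from was not stated, so p-values measure the spread between these libraries, which may be technical.

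Type I interferons are secreted by cells that sense microbial products, and in macrophages TLR4 triggers their synthesis through the adaptor TICAM1 and the factor IRF3. The cytokine binds its receptor on the same and on neighbouring cells, the kinases JAK1 and TYK2 are activated, and a complex that holds IRF9 then binds interferon-stimulated response elements (ISREs) in the promoters of many genes. Their products act against viruses at each step of infection, from entry and sensing of viral RNA to translation, genome copying and budding.

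Library totals ran from 8742362 to 15780926 tags, and values below are CPM (tags per 1000000 tags of the library, its total scaled by edgeR's TMM factor) unless RPKM is named. Nr4a1, the targeted gene, lay between 15.5 and 25.7 CPM in BMDM-WT and between 4.44 and 7.00 CPM in BMDM-Nur77-KO at 0 h, and between 358 and 485 against 146 and 243 CPM at 1 h. Tags on Nr4a1 thus remained in the knockout, at lower levels (log2 difference -1.90 ± 0.19 SE at 0 h, adjusted p = 1.5e-08, and -1.20 ± 0.15 at 1 h, adjusted p = 1.8e-06, edgeR). At 5 h it had 0.797 to 1.06 against 0.109 to 0.688 CPM (-1.54 ± 0.59, adjusted p = 0.042, edgeR). At 18 h it was nearly absent in both, at 0.174 to 0.477 against 0 to 0.448 CPM. These levels were too low to tell the genotypes apart (-0.47 ± 0.72, adjusted p = 0.68, edgeR). The 7 macrophage markers summed to between 9891 and 18655 CPM, while the lists for neutrophils (15.3 to 45.6), dendritic cells (0.954 to 17.8), B cells (1.38 to 4.69), mast cells and basophils (0.246 to 5.32), fibroblasts (0 to 1.78), T and NK cells (0 to 0.950) and erythroid cells (0 to 0.245) stayed low. Some libraries stood apart, namely BMDM-Nur77-KO 5 h replicate 1, BMDM-Nur77-KO 18 h replicate 4 and BMDM-WT 18 h replicate 3. Their deviations from the mean of the other libraries of the group correlated across genes with GC content at -0.63, -0.63 and -0.64. The other 29 libraries had -0.44 to 0.58. Some of these came close in size, namely BMDM-Nur77-KO 0 h replicate 4 (0.58) and BMDM-Nur77-KO 5 h replicates 3 and 4 (0.53 and 0.56). Results that rest on these 3 libraries are given below with and without them.

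Promoter sequences are shown for a selection of the members whose window holds the letters of an ISRE. Others named in the results below, such as Ifih1 and Oas3, are not shown. RefSeq windows of 250 bases before to 50 bases after the start (GRCm38.p6) were at hand for 34 of the 45 genes and were searched on both strands for GAAANNGAAA, where N is any base. The letters were in 16 of the 34 (47.1%), against 1079 of 27025 genes with a window (3.99%) and 364 of 8929 tested genes with a window (4.08%). In the lines that follow, written along the strand of the gene, capitals mark the matches, which overlap and run together in Isg15, Oas1a, Oas1g and Bst2. A match on the opposite strand reads TTTC, any 2 bases, TTTC.
Ifit1: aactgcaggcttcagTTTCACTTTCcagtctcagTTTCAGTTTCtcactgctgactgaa
Ifit3: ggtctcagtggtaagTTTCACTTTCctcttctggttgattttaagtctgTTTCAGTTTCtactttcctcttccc
Isg15: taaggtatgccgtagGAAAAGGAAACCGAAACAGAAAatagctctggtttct
Oas1a: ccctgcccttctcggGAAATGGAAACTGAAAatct
Oas1g: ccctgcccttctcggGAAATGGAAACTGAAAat
Rsad2: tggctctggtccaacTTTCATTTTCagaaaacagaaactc
Bst2: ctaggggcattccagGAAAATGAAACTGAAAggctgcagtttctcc
Ddx58: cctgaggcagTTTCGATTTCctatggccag

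These stretches lie at chr19:34640770-34640828 on the plus strand (Ifit1, bases -119 to -61 from the start), chr19:34583358-34583431 plus (Ifit3, -171 to -98), chr4:156200860-156200911 minus (Isg15, -93 to -42), chr5:120907526-120907560 minus (Oas1a, -35 to -1), chr5:120887614-120887646 minus (Oas1g, -33 to -1), chr12:26456548-26456587 minus (Rsad2, -135 to -96), chr8:71537572-71537617 minus (Bst2, -145 to -100) and chr4:40239804-40239833 minus (Ddx58, -8 to 21). Ifit1 and Ifit3 each held 2 separate matches. Isg15 held 3 matches in a single run of overlapping copies. The stretch at Ifit3b, chr19:34607754-34607827, had the same letters as that at Ifit3 over all 74 bases, and tags of Ifit3 and Ifit3b, and of Oas1a and Oas1g, could have been split between near-identical copies. Ddx60, Eif2ak2, Ifih1, Ifitm3, Oas3, Slfn5 and Slfn8 also held the letters, whereas Oasl1, Ifit2 and Cmpk2 did not have them in this window. A gamma-activated site, TTCNNNGAA, was in 9 of the 34 windows (26.5%) against 9.55% of all genes with a window. Such matches describe the letters and do not show binding.

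Many of the members lie in clusters of neighbours less than 100 kb apart (GRCm38.p6). The IFIT genes Ifit2, Ifit3, Ifit3b and Ifit1 span chr19:34550550-34650009. On chromosome 5, Oas2, Oas3, Oas1b, Oas1g and Oas1a span 120730333 to 120907544, and Oasl2 and Oasl1 span 114896926 to 114937911. Rsad2 and Cmpk2 are neighbours on chromosome 12 (26442743 to 26479837), Mx1 and Mx2 on chromosome 16 (97447035 to 97560901), Parp14, Dtx3l and Parp9 also on chromosome 16 (35831892 to 35972621) and Slfn5, Slfn8, Slfn2 and Slfn1 on chromosome 11 (82951349 to 83122670). Mx1, Mx2 and Oas1g are listed under noncoding RefSeq records.

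In unstimulated BMDM-WT the members together took 0.405% ± 0.0286 (SD, n = 4) of all tags. Per length, the highest were Ifitm3, which blocks fusion of viral membranes (564 RPKM), Samhd1, which degrades the deoxynucleotides that viral polymerases need (220), the Schlafen gene Slfn2 (160) and Bst2, or tetherin, which holds budding virions at the cell surface (74.1). The lowest were Slfn1 (0.521 RPKM) and Oasl1 (0.640). Baseline levels of the members thus differed widely, and the restriction factors of the membrane were among the most abundant before any stimulus.

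After 5 h of LPS the share of tags on the members was 7.80% ± 0.161 in BMDM-WT, and after 18 h it was 5.74% ± 0.277. The corresponding values in BMDM-Nur77-KO were 7.74% ± 0.511 and 7.30% ± 0.302, after 0.332% ± 0.0142 at 0 h (n = 4 each). At 18 h the 4 knockout libraries ran from 7.13 to 7.75% and the 4 wild-type libraries from 5.51 to 6.10%, without overlap. At 5 h the ranges, 7.36 to 8.48% and 7.58 to 7.97%, overlapped. Rsad2 alone took 1.93% of all tags in BMDM-WT at 5 h. In bulk RNA a larger share of responding cells and more RNA per cell cannot be told apart.

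**Figure D1:**
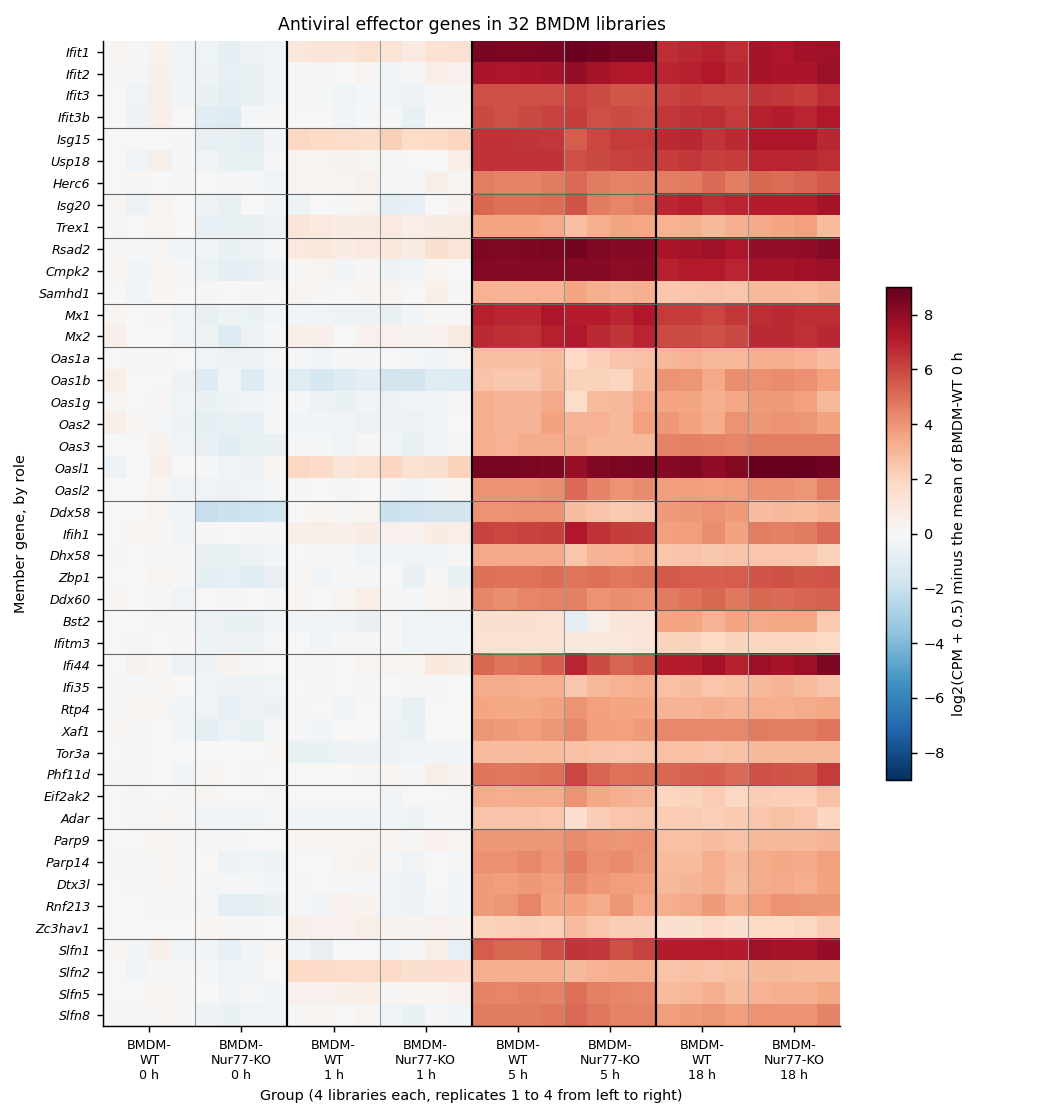
Each line of the heatmap is 1 of the 45 members, ordered by role, and each column 1 of the 32 libraries, grouped by hours of LPS and genotype. The colour is log2(CPM + 0.5) minus the mean of BMDM-WT at 0 h, red above and blue below it: the 16 libraries at 0 and 1 h are pale apart from Isg15, Oasl1 and Slfn2 at 1 h and Ddx58 in BMDM-Nur77-KO, and those at 5 and 18 h are red for nearly all members.

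After 1 h of LPS few members had passed the limits of a call, while early targets of NF-κB were already up. A member was called higher or lower in a comparison over time when its log2 fold change passed 1 in size at an adjusted p under 0.05 (edgeR quasi-likelihood test, Benjamini-Hochberg over all genes tested). By this rule 4 of the 45 rose in BMDM-WT (3.43% of all tested genes did), namely Oasl1, Isg15, Slfn2 and Ifit1, and Oas1b fell (1.76% of all tested genes did). In BMDM-Nur77-KO 7 rose (3.23% of all tested genes), the same 4 with Rsad2, Trex1 and Mx2. Called or not, 24 of the 45 had a positive change in BMDM-WT, with a median log2 of 0.05 against -0.03 over all tested genes. In BMDM-Nur77-KO 41 had a positive change, with a median of 0.31 against 0.00. All 14 genes of a list of early NF-κB targets, among them Tnf and Cxcl1, rose by 1 h in each genotype. Their median log2 fold change was 4.02 in BMDM-WT and 4.15 in BMDM-Nur77-KO. This list names genes that rise early and was chosen with earlier results of these data known, so its rise is only a reference.

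Isg15, a ubiquitin-like protein that is attached to other proteins, had the values 7.55, 7.68, 7.49 and 6.53 CPM at 0 h and 27.6, 26.0, 24.1 and 22.3 CPM at 1 h in BMDM-WT, and 4.19, 4.42, 3.91 and 6.04 against 34.6, 23.8, 27.1 and 29.0 CPM in BMDM-Nur77-KO. The times did not overlap in either genotype. Its log2 fold change was 1.77 ± 0.16 in BMDM-WT (adjusted p = 2.4e-10, edgeR) and 2.62 ± 0.17 in BMDM-Nur77-KO (adjusted p = 1.1e-13). Slfn2, needed for the quiescence of immune cells, went from 271, 223, 291 and 283 CPM to 944, 860, 832 and 839 CPM in BMDM-WT, without overlap. Its change was much the same in BMDM-Nur77-KO (log2 1.70 ± 0.08 and 1.74 ± 0.08, adjusted p = 1.9e-17 and 1.2e-17, edgeR). The other early calls were Oasl1, which restrains synthesis of IRF7 (log2 1.80 ± 0.26 and 2.31 ± 0.28 in the same order), and Ifit1, which binds viral RNA that lacks a host cap (1.16 ± 0.14 and 1.78 ± 0.14). In BMDM-Nur77-KO, Rsad2 changed by 1.44 ± 0.13, the exonuclease gene Trex1 by 1.42 ± 0.15 and Mx2 by 1.21 ± 0.23; in BMDM-WT the values were 0.85 ± 0.13, 0.87 ± 0.15 and 0.36 ± 0.21. Mx2 lost its call in BMDM-Nur77-KO when replicate 2 of the 0 h group was left out.

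Oas1b went the other way at 1 h in BMDM-WT. It belongs to the family of oligoadenylate synthetases, whose active members meet viral RNA duplexes and make the messenger that activates the nuclease RNase L. Its 4 libraries read 3.97, 2.54, 2.72 and 1.81 CPM at 0 h and 0.995, 0.563, 0.936 and 1.25 CPM at 1 h, without overlap but at low counts. The log2 change was -1.58 ± 0.37 (adjusted p = 0.0012, edgeR). In BMDM-Nur77-KO it was -1.12 ± 0.43 (adjusted p = 0.087).

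By 5 h all 45 members had risen in BMDM-WT (15.7% of all tested genes had), and all 45 were higher at 18 h than at 0 h (13.1% of all tested genes). The same held in BMDM-Nur77-KO at 5 h (45 members, 16.0% of all tested genes) and at 18 h (45 members, 15.4%). The median log2 fold change over the members was 4.09 at 5 h and 3.85 at 18 h in BMDM-WT and 4.51 and 4.71 in BMDM-Nur77-KO, where the medians over all tested genes were -0.14, -0.01, -0.12 and -0.03. Without TMM scaling the medians of all genes moved to -0.78, -0.37, -0.74 and -0.48, and the 5 h calls of Bst2 and Ifitm3 were lost in both genotypes with no change of sign. The 4 comparisons share the 0 h libraries within a genotype.

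Rsad2, or viperin, which turns a nucleotide into a terminator of viral RNA chains, became the most abundant member per length, at 6434 RPKM in BMDM-WT at 5 h. It had 76.6, 63.8, 86.0 and 59.6 CPM at 0 h, 24198, 23461, 24508 and 25163 CPM at 5 h and 11402, 12720, 13909 and 11089 CPM at 18 h in BMDM-WT. Every stimulated library was far above every unstimulated library, and every library at 5 h was above every library at 18 h. The log2 fold change against 0 h was 8.41 ± 0.13 at 5 h (adjusted p = 8.0e-27, edgeR) and 7.42 ± 0.13 at 18 h (adjusted p = 1.1e-25). Its neighbour Cmpk2, a mitochondrial nucleotide kinase that supplies the substrate of viperin, rose by 8.26 ± 0.12 and 7.02 ± 0.12 (3308 and 1400 RPKM). In BMDM-Nur77-KO the values were 8.72 ± 0.13 and 8.36 ± 0.13 for Rsad2 and 8.80 ± 0.12 and 8.20 ± 0.12 for Cmpk2.

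The 4 IFIT genes, whose products bind foreign RNA and stall its translation, rose together but to different heights. Ifit1 went from 20.1, 15.5, 21.0 and 13.0 CPM to 6431, 6148, 6347 and 6676 CPM at 5 h and to 1787, 1908, 2206 and 1732 CPM at 18 h in BMDM-WT. In BMDM-Nur77-KO it went from 13.1, 9.10, 11.6 and 13.0 CPM to 8154, 7086, 6679 and 6405 CPM at 5 h and to 3003, 2791, 3238 and 3481 CPM at 18 h. The genotypes overlapped at 5 h and were apart at 18 h. Its log2 fold change at 5 h was 8.52 ± 0.13 in BMDM-WT and 9.24 ± 0.14 in BMDM-Nur77-KO (adjusted p = 5.8e-27 and 1.9e-27, edgeR). Ifit2 followed with 7.31 ± 0.16 and 8.02 ± 0.16 and was, at 3345 RPKM in BMDM-WT at 5 h, next to Rsad2 per length. Ifit3 (5.76 ± 0.14 and 6.43 ± 0.15) and Ifit3b (6.01 ± 0.18 and 6.69 ± 0.20) rose less at 5 h, and both had higher means at 18 h.

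**Figure D2:**
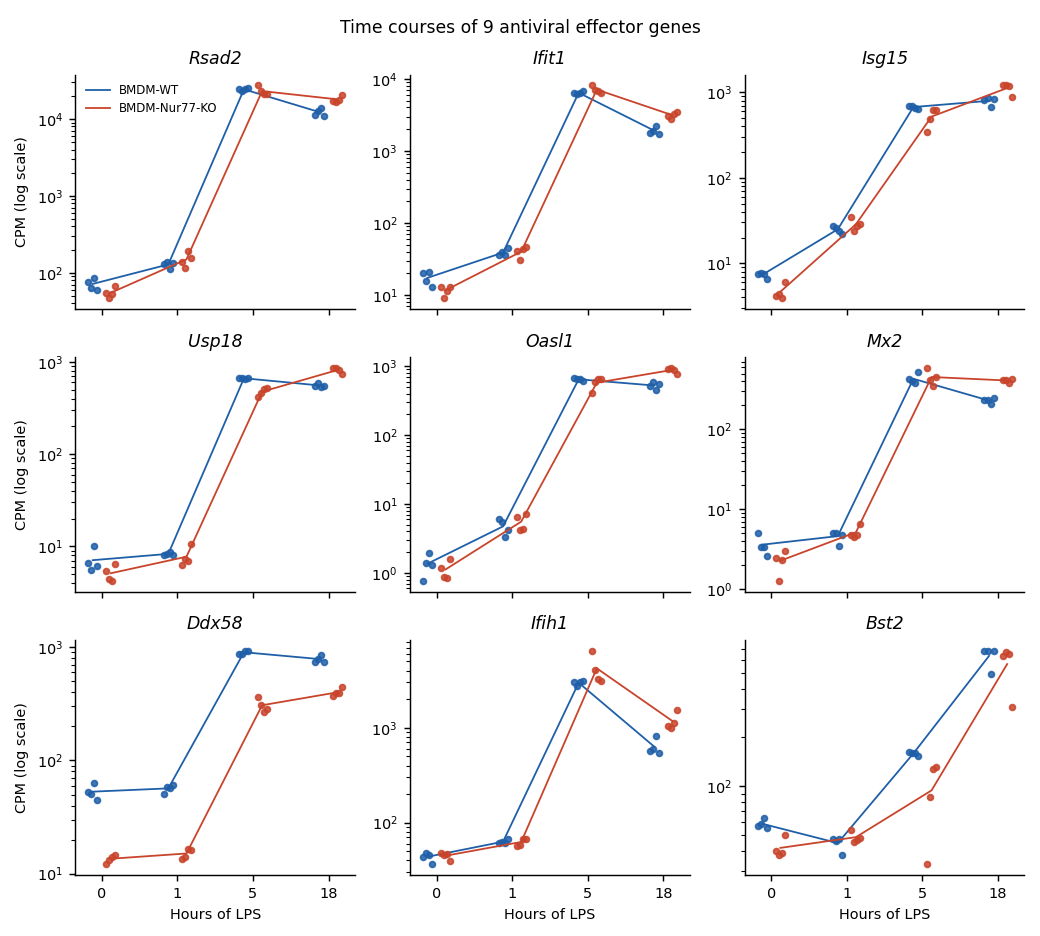
CPM on a log axis against hours of LPS (0, 1, 5 and 18, evenly spaced) for 9 members, with each of the 4 libraries per group as a point and lines joining the group means, blue for BMDM-WT and red for BMDM-Nur77-KO. Rsad2, Ifit1 and Ifih1 fall from 5 to 18 h in both genotypes, Bst2 climbs throughout after 1 h, and Ddx58 runs lower in BMDM-Nur77-KO at every time.

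Oasl1 had the largest log2 fold change at 5 h in BMDM-WT and at 18 h in both genotypes. Its libraries read 0.763, 1.40, 1.97 and 1.31 CPM at 0 h and 667, 660, 650 and 613 CPM at 5 h in BMDM-WT, and 1.18, 0.885, 0.843 and 1.59 CPM against 416, 586, 650 and 661 CPM in BMDM-Nur77-KO. At 18 h they read 516, 587, 455 and 547 CPM in BMDM-WT and 923, 943, 895 and 786 CPM in BMDM-Nur77-KO, where the genotypes did not overlap. The log2 changes were 8.88 ± 0.23 at 5 h and 8.58 ± 0.23 at 18 h in BMDM-WT and 9.01 ± 0.26 and 9.63 ± 0.26 in BMDM-Nur77-KO (edgeR, adjusted p from 9.4e-25 to 2.9e-24 in BMDM-WT and from 3.5e-25 to 1.2e-24 in BMDM-Nur77-KO). The other genes of the family moved less: at 5 h in BMDM-WT the log2 change was 4.07 ± 0.16 for Oasl2, 3.24 ± 0.23 for Oas1g, 3.23 ± 0.11 for Oas3, 3.22 ± 0.19 for Oas2, 2.77 ± 0.13 for Oas1a and 2.76 ± 0.25 for Oas1b. At 5 h in BMDM-WT Oas1b was the lowest of the 45 per length, at 10.2 RPKM.

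The MX proteins are GTPases that trap viral nucleoproteins. Both genes are listed here under noncoding RefSeq records, so their tags need not stand for such proteins. Mx2 had 5.04, 3.32, 3.40 and 2.61 CPM at 0 h, 423, 399, 376 and 519 at 5 h and 234, 230, 208 and 244 CPM at 18 h in BMDM-WT. In BMDM-Nur77-KO it had 2.46, 1.26, 2.30 and 3.02 CPM, then 585, 420, 345 and 458, then 417, 411, 375 and 431 CPM. At 18 h all knockout libraries lay above all wild-type libraries, and at 5 h they overlapped. The log2 change at 18 h was 6.00 ± 0.18 in BMDM-WT and 7.52 ± 0.21 in BMDM-Nur77-KO for Mx2, and 6.24 ± 0.14 and 7.17 ± 0.14 for Mx1.

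Among the sensors of viral RNA, Ifih1 (MDA5), which recognises long duplexes, rose most at 5 h. It had 43.5, 48.5, 46.1 and 36.8 CPM at 0 h and 2998, 2782, 3001 and 3138 CPM at 5 h in BMDM-WT, but 573, 600, 815 and 540 CPM at 18 h. The knockout libraries read 47.5, 45.4, 47.1 and 39.4, then 6446, 4061, 3290 and 3108, then 1055, 1002, 1116 and 1535 CPM. Replicate 1 at 5 h and replicate 4 at 18 h, both among the libraries that stood apart, were the highest of their groups. The log2 change at 5 h was 6.09 ± 0.16 in BMDM-WT and 6.56 ± 0.16 in BMDM-Nur77-KO (adjusted p = 4.5e-22 and 1.2e-22, edgeR). Dhx58 (LGP2), which modulates both other sensors, changed by 3.42 ± 0.13 and 3.55 ± 0.13, and Zbp1, a sensor of left-handed nucleic acids that can start necroptosis, by 4.97 ± 0.11 and 5.81 ± 0.12. Eif2ak2 (PKR), which halts translation on viral RNA, changed by 3.33 ± 0.14 and 3.49 ± 0.14, and the RNA editor Adar by 2.55 ± 0.14 and 2.55 ± 0.15.

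The smallest rises at 5 h were those of the membrane factors. Ifitm3 went from 368, 360, 385 and 415 CPM to 972, 964, 945 and 940 CPM at 5 h and 1536, 1579, 1302 and 1508 CPM at 18 h in BMDM-WT (log2 1.32 ± 0.08 and 1.95 ± 0.08, adjusted p = 5.6e-15 and 6.7e-19, edgeR). Its levels were high throughout, 1409 RPKM at 5 h and 2184 at 18 h. Bst2 went from 57.2, 58.1, 64.0 and 55.6 CPM to 163, 161, 160 and 154 CPM and then to 684, 684, 496 and 683 CPM in BMDM-WT. In BMDM-Nur77-KO it went from 39.6, 37.8, 38.9 and 50.4 CPM to 33.2, 86.1, 127 and 131 CPM and then to 636, 669, 657 and 308 CPM. The lowest of the 4 values in the 5 h knockout group and in both groups at 18 h came from the 3 libraries that stood apart. The log2 change of Bst2 at 5 h was 1.44 ± 0.24 in BMDM-WT and 1.18 ± 0.24 in BMDM-Nur77-KO (adjusted p = 5.0e-06 and 9.2e-05, edgeR), the latter lost when replicate 4 of the 5 h group was left out.

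In the ISG15 system, Usp18 changed by 6.56 ± 0.14 at 5 h and 6.30 ± 0.14 at 18 h on the log2 scale in BMDM-WT and by 6.54 ± 0.15 and 7.33 ± 0.15 in BMDM-Nur77-KO, and Isg15 by 6.52 ± 0.15 and 6.76 ± 0.15 against 6.81 ± 0.17 and 7.92 ± 0.17. Herc6 rose less, by 4.56 ± 0.13 and 4.78 ± 0.13 in BMDM-WT. Of the nucleases, Isg20 changed by 5.46 ± 0.30 and 7.28 ± 0.30 and Trex1 by 3.52 ± 0.15 and 3.14 ± 0.15. The Schlafen genes, which restrict translation and cell growth, spread widely at 5 h in BMDM-WT, from 5.95 ± 0.30 for Slfn1 over 4.69 ± 0.12 for Slfn8 and 4.46 ± 0.11 for Slfn5 to 3.19 ± 0.08 for Slfn2. Slfn1 and Ifi44 reached 7.67 ± 0.29 and 7.26 ± 0.29 at 18 h, and 8.58 ± 0.34 and 7.98 ± 0.30 in BMDM-Nur77-KO, where Isg20 reached 8.12 ± 0.35. Samhd1, abundant from the start, went from 457, 373, 482 and 444 CPM to 3769, 3710, 3826 and 3846 CPM at 5 h in BMDM-WT (3.11 ± 0.09), and Zc3hav1, a protein that marks CpG-rich viral RNA for decay, had the lowest rise outside the membrane factors (2.14 ± 0.10).

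The members parted in their course between 5 and 18 h. In BMDM-WT 27 had their highest mean at 5 h and 18 at 18 h, and in BMDM-Nur77-KO 19 and 26. Past the limit of 1 on the log2 scale, 6 members were higher at 18 h than at 5 h in BMDM-WT (15.9% of all tested genes were) and 7 were lower (14.3% of all tested genes). In BMDM-Nur77-KO 8 were higher (14.3%) and 5 lower (14.3%). These shares lay near those of all genes. Without TMM scaling 6 were higher and 4 lower in BMDM-WT, and 10 and 3 in BMDM-Nur77-KO.

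Later members included Ifi44, which inhibits virus growth by a route that is not settled, and Bst2, Isg20, Slfn1, Oas1b and Oas3, which were higher at 18 h in both genotypes. Isg20, an RNA exonuclease, had 64.9, 56.1, 57.1 and 58.2 CPM at 5 h and 205, 234, 182 and 211 CPM at 18 h in BMDM-WT, and 91.0, 46.3, 38.5 and 44.2 against 241, 243, 245 and 323 CPM in BMDM-Nur77-KO. The times did not overlap (log2 1.82 ± 0.19 and 2.26 ± 0.19, adjusted p = 1.0e-09 and 1.1e-11, edgeR). The change was 2.06 ± 0.24 and 1.85 ± 0.23 for Ifi44, 2.00 ± 0.24 and 2.59 ± 0.24 for Bst2, 1.72 ± 0.16 and 1.47 ± 0.16 for Slfn1, 1.34 ± 0.20 and 1.80 ± 0.20 for Oas1b and 1.23 ± 0.11 and 1.56 ± 0.10 for Oas3. Isg15 (1.11 ± 0.14) and Ifit3b (1.09 ± 0.15) passed the limit in BMDM-Nur77-KO and had 0.24 ± 0.14 and 0.55 ± 0.15 in BMDM-WT. Isg15 lost that call without replicate 1 of the 5 h knockout group.

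In both genotypes 5 members were lower at 18 h than at 5 h. Ifih1 fell by most, with a log2 change of -2.24 ± 0.16 in BMDM-WT and -1.84 ± 0.16 in BMDM-Nur77-KO (adjusted p = 5.2e-13 and 3.2e-11, edgeR), followed in BMDM-WT by Ifit1 (-1.75 ± 0.13 and -1.18 ± 0.13), Slfn5 (-1.48 ± 0.11 and -1.32 ± 0.11), Eif2ak2 (-1.31 ± 0.14 and -1.20 ± 0.14) and Parp9 (-1.26 ± 0.08 and -1.11 ± 0.08). Cmpk2 (-1.24 ± 0.12) and Parp14 (-1.16 ± 0.13) fell past the limit in BMDM-WT and had -0.60 ± 0.12 and -0.76 ± 0.13 in BMDM-Nur77-KO. Eif2ak2 lost the call in BMDM-Nur77-KO without replicate 1 at 5 h, where it had 1302 CPM against 887, 729 and 675 in the other libraries. Of the 14 early NF-κB targets, 13 fell in BMDM-WT and 10 in BMDM-Nur77-KO.

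Unstimulated BMDM-Nur77-KO had lower levels of several members than BMDM-WT. A genotype difference was called past a log2 value of 0.58 in size at an adjusted p under 0.05. At 0 h 8 of the 45 members were lower in BMDM-Nur77-KO (2.44% of all tested genes were), and 0 were higher (2.38% of all tested genes); none was higher at an unadjusted p under 0.05, and DESeq2 called 0. The difference was negative in 39 of the 45, with a median of -0.44 against -0.03 over all tested genes. In 16 members all 4 knockout libraries lay below all 4 wild-type libraries, which held for 12.6% of all tested genes.

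Zbp1 had 11.5, 11.5, 14.4 and 11.0 CPM in BMDM-WT and 6.56, 7.08, 5.52 and 6.84 CPM in BMDM-Nur77-KO at 0 h. Oas3 had 41.0, 42.5, 52.9 and 33.2 against 26.4, 21.7, 26.1 and 25.9 CPM. In neither did the genotypes overlap. The log2 difference was -0.90 ± 0.13 for Zbp1 (adjusted p = 9.2e-06, edgeR) and -0.76 ± 0.11 for Oas3 (adjusted p = 1.5e-05). Trex1 (-0.67 ± 0.16), Isg15 (-0.66 ± 0.18), Cmpk2 (-0.65 ± 0.13), Ifit3 (-0.62 ± 0.15) and Oas2 (-0.61 ± 0.20) were called as well, with adjusted p from 5.7e-04 to 0.044. Leaving out single 0 h libraries changed this count to between 5 (without BMDM-WT replicate 3) and 16 (without BMDM-Nur77-KO replicate 4): Cmpk2 lost its call without BMDM-WT replicate 3, Ifit3 without that library or without BMDM-Nur77-KO replicate 2, and Isg15 without BMDM-Nur77-KO replicate 1 or 3. The call of Oas2 was lost in 6 of the 8 such fits. When each library's trend over transcript GC content was removed within each time, Trex1, Isg15 and Oas2 lost their calls, and 10 members were called, 5 of the 8 among them.

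Ddx58 (RIG-I), which senses short viral RNA with a triphosphate end, was the member with the largest genotype difference, and it was lower in BMDM-Nur77-KO at all 4 times. At 0 h it had 53.1, 50.9, 63.4 and 44.7 CPM in BMDM-WT and 12.2, 13.3, 14.1 and 14.6 CPM in BMDM-Nur77-KO. At 5 h it had 880, 879, 928 and 927 against 366, 309, 269 and 286 CPM, and at 18 h 748, 792, 863 and 742 against 371, 393, 391 and 447 CPM. The genotypes were far apart at each of these times. The log2 difference was -1.97 ± 0.10 at 0 h (adjusted p = 1.3e-14, edgeR), -1.91 ± 0.10 at 1 h (3.3e-14), -1.55 ± 0.09 at 5 h (5.4e-13) and -0.97 ± 0.09 at 18 h (3.2e-09). LPS still raised it in both genotypes, by 4.09 ± 0.10 in BMDM-WT and 4.50 ± 0.10 in BMDM-Nur77-KO at 5 h. No library left out and no other fit with this limit of size took any of these genotype calls away.

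The gene lies at chr4:40203777-40239825 (GRCm38.p6), and the 25 other tested genes within 2 Mb of it, a window chosen after its values were seen, had genotype differences between -0.32 and 0.40 at 0 h and between -0.50 and 0.34 at 18 h. At 1 and 5 h they ran from -0.15 to 0.60 and from -0.63 to 0.66, and none of the 25 was called lower at any time. The low level of Ddx58 thus stood out from its surroundings. The loss of Nur77 and any other difference between the lines at this locus cannot be told apart.

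At 1 h Ddx58 was the only member called lower in BMDM-Nur77-KO (1.36% of all tested genes were), and 0 were called higher by edgeR (1.51% of all tested genes), with 1 member higher at an unadjusted p under 0.05 and 0 by DESeq2. At 5 h Slfn1 and Ifi44 were higher (2 members, 5.61% of all tested genes), and Ddx58 and Bst2 lower (2 members, 3.13%). Slfn1 had 60.8, 51.5, 49.8 and 74.1 CPM in BMDM-WT and 123, 115, 74.2 and 97.3 CPM in BMDM-Nur77-KO, nearly touching (log2 0.79 ± 0.17, adjusted p = 0.0011, edgeR). Ifi44 had 149, 119, 131 and 171 against 480, 243, 158 and 192 CPM, with overlap (0.91 ± 0.24, adjusted p = 0.0071). Bst2 had the values given above and a difference of -0.76 ± 0.24 (adjusted p = 0.024, edgeR). The calls of Ifi44 and Bst2 were lost without BMDM-Nur77-KO replicate 1 and without the 3 libraries that stood apart, when the differences were 0.47 and -0.48, and that of Bst2 also without replicate 2. The counts rose to 5 higher without replicate 3 and 4 lower without replicate 4 of the knockout.

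**Figure D3:**
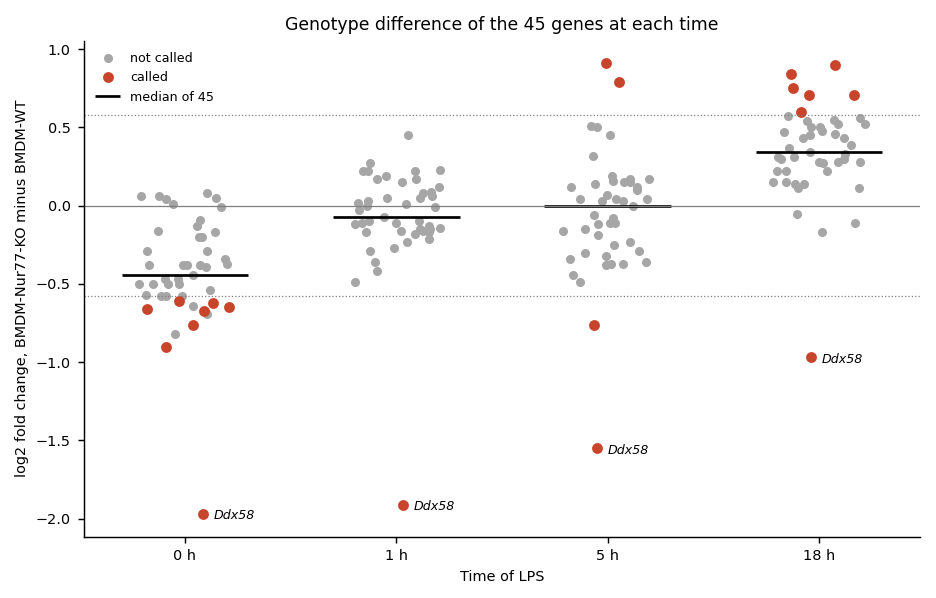
Log2 difference BMDM-Nur77-KO minus BMDM-WT of each of the 45 members at 0, 1, 5 and 18 h, with called members in red, the median of the 45 as a bar and the limits of 0.58 as dotted lines. Most members lie below 0 at 0 h (39 of 45) and above 0 at 18 h (41 of 45), and Ddx58 lies lowest at all 4 times.

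By 18 h the balance had turned. In BMDM-Nur77-KO 6 members were called higher (5.70% of all tested genes were), namely Ifih1, Mx2, Oasl1, Ifit1, Ifi44 and Phf11d, and Ddx58 lower (4.12% of all tested genes). Past an adjusted p under 0.05 without the limit of size, 26 were higher. The share of all genes by that rule is not given, so this count cannot be set against all genes. The difference was positive in 41 of the 45 members, with a median of 0.34 against -0.01 over all tested genes. In 27 of them all 4 knockout libraries lay above all 4 wild-type libraries, which held for 10.8% of all tested genes.

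Ifih1 was higher by 0.90 ± 0.16 on the log2 scale (adjusted p = 8.8e-05, edgeR), Mx2 by 0.84 ± 0.14 (5.7e-05), Oasl1 by 0.75 ± 0.15 (2.6e-04) and Ifit1 by 0.71 ± 0.13 (6.8e-05), from the library values given above. These 4 calls were kept in every other fit with this limit of size. Ifi44 had 552, 571, 747 and 503 CPM in BMDM-WT and 857, 734, 866 and 1410 CPM in BMDM-Nur77-KO, which overlapped (0.71 ± 0.23, adjusted p = 0.029, edgeR), and Phf11d, whose role is not well defined, differed by 0.60 ± 0.17 (adjusted p = 0.0088). Both calls were lost without BMDM-Nur77-KO replicate 4 or without BMDM-WT replicate 1 or 4, and that of Ifi44 also without BMDM-WT replicate 2. Both were also lost with the GC trend removed, at 0.50 ± 0.12 for Ifi44 and 0.46 ± 0.09 for Phf11d, and that of Phf11d also without TMM scaling. Without the 3 libraries that stood apart the difference was 0.89 ± 0.09 for Ifih1, 0.60 ± 0.14 for Ifi44 and 0.47 ± 0.09 for Phf11d, the last no longer past the limit, and 7 members were called higher. The count was 12 without BMDM-WT replicate 3 and 4 without BMDM-WT replicate 1. In the same libraries the 7 macrophage markers summed to between 9891 and 11290 CPM in BMDM-Nur77-KO and between 12489 and 13040 CPM in BMDM-WT. Among them Adgre1, Itgam, Csf1r and Lyz2 were lower in BMDM-Nur77-KO without overlap. Cd68 and Cd14 overlapped, and Mertk was higher in BMDM-Nur77-KO (466 to 590 against 309 to 333 CPM). The 5 dendritic cell markers summed to between 10.7 and 17.8 against 3.45 and 4.57 CPM. Of these sums Clec9a made 10.2 to 16.4 and 2.68 to 4.19 CPM. Siglech and Flt3, of the same list, were at most 0.0953 CPM. The knockout libraries had 0.0701 to 0.448 CPM of Zbtb46 against 0.0915 to 0.174 CPM in the wild type, and 0.178 to 1.23 CPM of Ccr9 against 0.191 to 0.549 CPM. The part of these shifts in the genotype differences was not tested.

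The LPS response itself, the log2 change from 0 h, was then compared between the genotypes by the interaction term of the same fit, called at an adjusted p under 0.05 with no limit of size. At 1 h 0 members had a larger response in BMDM-Nur77-KO (0.0443% of all tested genes had) and 0 a smaller one (0.0266% of all tested genes) by edgeR, with 16 larger and 0 smaller at an unadjusted p under 0.05 and 1 and 0 by DESeq2. Without the 3 libraries that stood apart 10 members had a larger response at 1 h, and with the compared libraries alone 4 did. The 3 libraries are of 5 and 18 h, so they enter the comparison at 1 h only through estimates shared in the fit. At 5 h 5 members had a larger response (1.73% of all tested genes), and Tor3a a smaller one (1.37%). At 18 h 26 of the 45 members responded more strongly in BMDM-Nur77-KO (5.36% of all tested genes) and 0 less strongly (4.03%), with 0 at an unadjusted p under 0.05 and 0 by DESeq2. The difference at 18 h was positive in all 45, with a median of 0.83 on the log2 scale against 0.02 over all tested genes. At 1 and 5 h it was positive in 40 of the 45 each, with medians of 0.40 and 0.39 against 0.03 over all genes. Without the 3 libraries that stood apart 38 were called at 18 h. For counts at an unadjusted p, by DESeq2 or from fewer libraries, the shares of all tested genes are not given. The comparisons share the 0 h libraries of each genotype, so the lower baseline and the higher level at 18 h both enter the difference.

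**Figure D4:**
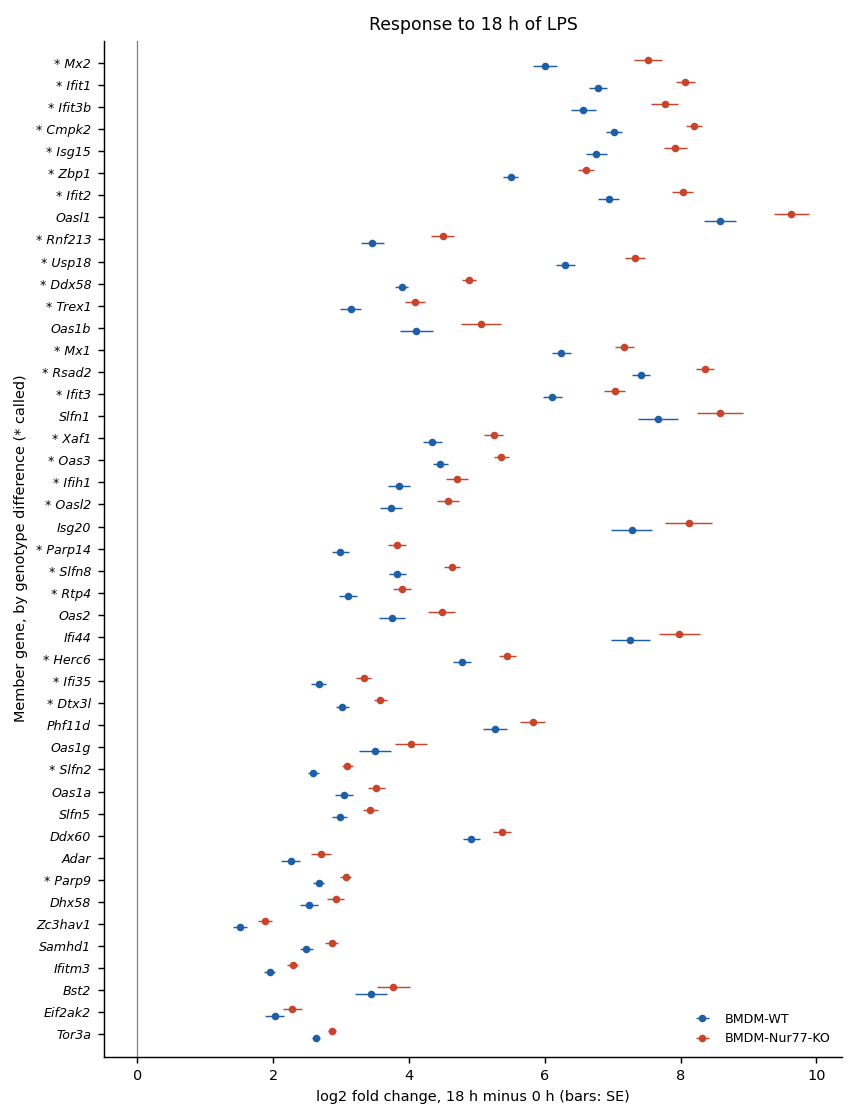
Log2 fold change from 0 to 18 h of LPS (horizontal axis) of each of the 45 members in BMDM-WT (blue) and BMDM-Nur77-KO (red), with bars for the SE, ordered by the difference between the genotypes. The red point lies to the right of the blue point in all 45, an asterisk marks the 26 called in the interaction test, and Mx2 has the widest gap, 1.52.

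Mx2 had the largest difference in response at 18 h (1.52 ± 0.28, adjusted p = 2.7e-04, edgeR), followed by Ifit1 (1.29 ± 0.19, 2.1e-05), Ifit3b (1.21 ± 0.27, 0.0031), Cmpk2 (1.18 ± 0.17, 1.6e-05), Isg15 (1.15 ± 0.23, 7.1e-04) and Zbp1 (1.11 ± 0.16, 1.9e-05). All 4 IFIT genes were among the 26, with Ifit2 at 1.09 ± 0.23 and Ifit3 at 0.92 ± 0.20. In the ISG15 system the protease gene Usp18, which removes ISG15 and dampens receptor signalling, had 1.02 ± 0.20 and the ligase gene Herc6 0.67 ± 0.19. Both MX genes were called (Mx1 0.93 ± 0.20), as were Rsad2 (0.93 ± 0.18) and the sensors Ddx58 (0.99 ± 0.14) and Ifih1 (0.86 ± 0.23). Of the 7 genes of the OAS family Oas3 (0.90 ± 0.15) and Oasl2 (0.85 ± 0.22) were called, and Oasl1 had 1.05 ± 0.35 at an adjusted p of 0.055 (edgeR).

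The PARP and ubiquitin ligase group added Rnf213, a ligase that coats intracellular microbes (1.04 ± 0.24), Parp14 (0.83 ± 0.18), Dtx3l (0.56 ± 0.14) and Parp9 (0.40 ± 0.11), and the Schlafen group Slfn8 (0.80 ± 0.17) and Slfn2 (0.51 ± 0.11). Trex1, which clears cytosolic DNA (0.95 ± 0.21), Xaf1, an antagonist of apoptosis inhibitors (0.91 ± 0.20), Rtp4 (0.80 ± 0.18) and Ifi35 (0.66 ± 0.16) completed the list. Bst2 (0.33 ± 0.34), Ifitm3 (0.34 ± 0.12), Samhd1 (0.37 ± 0.13), Eif2ak2 (0.26 ± 0.20), Adar (0.44 ± 0.21), Isg20 (0.84 ± 0.46), Slfn1 (0.91 ± 0.45) and Slfn5 (0.45 ± 0.16) were not called, with adjusted p from 0.063 to 0.67 (edgeR). Parp9 lost its call without BMDM-WT 0 h replicate 3.

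The members reached this difference in unlike ways. For Zbp1 the genotype difference was -0.90 ± 0.13 at 0 h and 0.22 ± 0.10 at 18 h, so most of its larger response lay in the lower baseline. For Ifih1 it was 0.04 ± 0.17 at 0 h and 0.90 ± 0.16 at 18 h, and the baselines, 43.7 ± 5.07 and 44.9 ± 3.74 CPM (SD, n = 4), overlapped. Ifit1, Mx2 and Cmpk2 had some of each (-0.57, -0.69 and -0.65 at 0 h and 0.71, 0.84 and 0.52 at 18 h). Ddx58 had a larger response at a level that stayed below that of BMDM-WT.

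At 5 h the members with a larger response in BMDM-Nur77-KO were Zbp1 (0.83 ± 0.16, adjusted p = 0.0028, edgeR), Oasl2 (0.83 ± 0.22, 0.034), Rtp4 (0.77 ± 0.18, 0.015), Ifit1 (0.72 ± 0.19, 0.031) and Oas3 (0.57 ± 0.15, 0.035). Tor3a, an ATPase of the endoplasmic reticulum, had the smaller one (-0.31 ± 0.09, 0.045). All but Zbp1 and Rtp4 lost their calls when single libraries of either genotype were left out, and these counts ran from 2 to 7 and from 0 to 1. With the compared libraries alone Rtp4 lost its call too (adjusted p = 0.051, edgeR), leaving Zbp1 alone, and with the GC trend removed 10 members had a larger response, 4 of the 5 among them. For Tor3a the 5 h libraries read 760, 723, 757 and 747 CPM in BMDM-WT and 650, 623, 604 and 630 CPM in BMDM-Nur77-KO, without overlap.

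The change from 5 to 18 h also differed by genotype. It was larger, that is more positive, in BMDM-Nur77-KO for 13 members (7.47% of all tested genes) and smaller for 0 (5.99%) by edgeR and by DESeq2, with 0 smaller at an unadjusted p under 0.05, and the difference was positive in 43 of the 45, with a median of 0.39. Usp18 had 671, 664, 656 and 670 CPM at 5 h and 546, 597, 529 and 552 CPM at 18 h in BMDM-WT, and 421, 456, 508 and 517 against 856, 858, 821 and 738 CPM in BMDM-Nur77-KO. It was thus lower in the knockout at 5 h and higher at 18 h, without overlap at either time. Such separation held for 9.85% of all tested genes at 5 h and 10.8% at 18 h. By the rule for genotype differences Usp18 was called at neither time. The log2 change was -0.26 ± 0.12 in BMDM-WT and 0.78 ± 0.12 in BMDM-Nur77-KO, and the difference of 1.04 ± 0.17 was the largest among the members (adjusted p = 5.1e-05, edgeR).

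Isg15 showed a like course, from 693, 694, 659 and 645 to 824, 856, 675 and 826 CPM in BMDM-WT and from 348, 491, 624 and 617 to 1206, 1212, 1198 and 874 CPM in BMDM-Nur77-KO. Its lowest knockout value at each time came from a library that stood apart. The difference was 0.87 ± 0.19 (adjusted p = 0.002, edgeR), and 0.75 ± 0.13 without the 3 libraries that stood apart. Oasl1 (0.92 ± 0.21), Rnf213 (0.84 ± 0.24), Mx2 (0.76 ± 0.20), Cmpk2 (0.64 ± 0.16), Rsad2 (0.63 ± 0.18), Ddx58 (0.58 ± 0.13), Ifit1 (0.57 ± 0.18), Ifi35 (0.56 ± 0.15), Oas1a (0.55 ± 0.18), Tor3a (0.54 ± 0.09) and Slfn2 (0.41 ± 0.11) were called too. Without the 3 libraries that stood apart 26 members were called, and the share of all genes in that fit is not given.

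**Figure D5:**
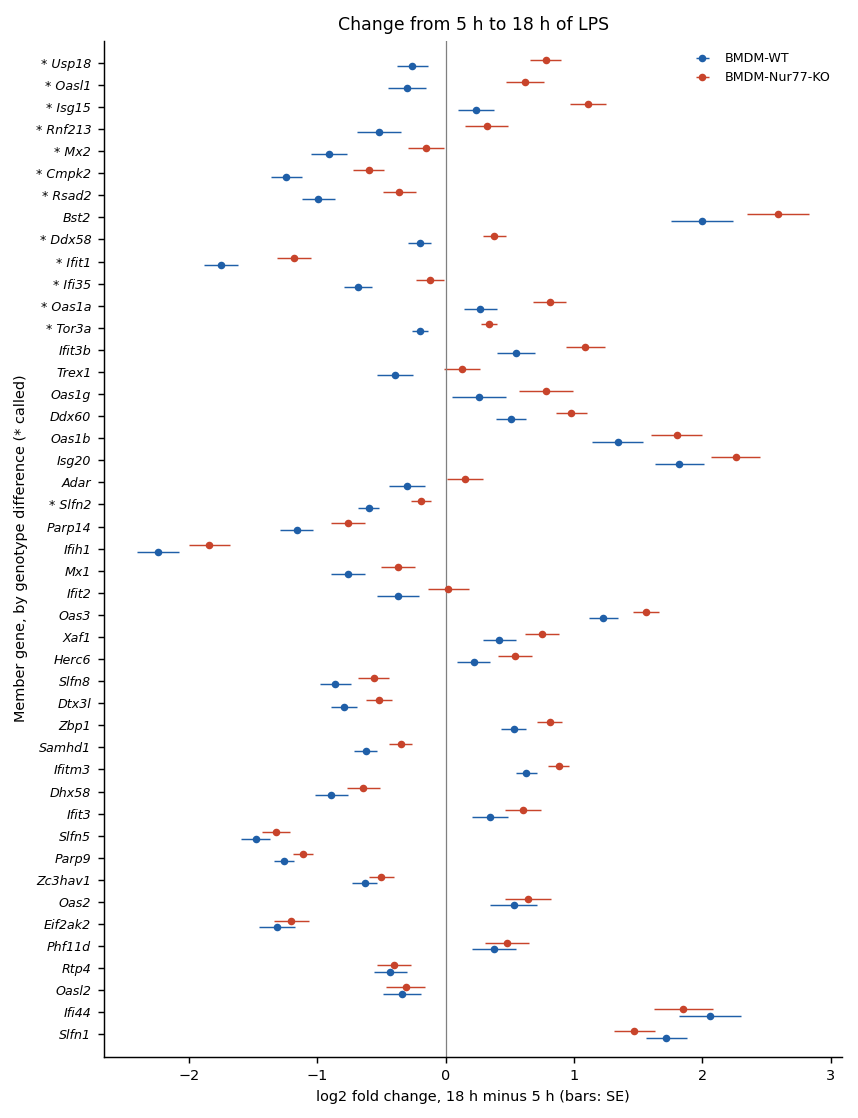
Log2 fold change from 5 to 18 h of LPS (horizontal axis) of each of the 45 members in BMDM-WT (blue) and BMDM-Nur77-KO (red), with bars for the SE, ordered by the difference between the genotypes, and with an asterisk for the 13 called. The red point lies to the right of the blue point in 43 of the 45, Ifih1 is lowest in both genotypes, and Ifi44 is highest in BMDM-WT.

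A list of 21 genes of interferon production and signalling gives the setting of these changes. It was chosen from textbook knowledge, with earlier results of these data known. Ifnb1, the interferon that macrophages make early, had 0 tags in all 8 libraries at 0 h. At 1 h it had 22.9, 19.7, 18.9 and 20.2 CPM in BMDM-WT and 26.4, 19.4, 20.3 and 26.7 CPM in BMDM-Nur77-KO, and at 5 h between 2.72 and 4.78 and between 3.71 and 5.54 CPM. At 18 h it had 2.11, 1.91, 2.44 and 2.16 CPM in BMDM-WT and 5.73, 5.08, 5.05 and 5.97 CPM in BMDM-Nur77-KO, apart without overlap (log2 difference 1.33 ± 0.18, adjusted p = 4.2e-06, edgeR). Its highest level came at 1 h, when few of the members had been called.

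Of the 21 genes, 4 rose by 1 h in each genotype (Ifnb1, Socs3, Irf1 and Cd14), 17 by 5 h and 16 by 18 h in BMDM-WT, and 15 at both times in BMDM-Nur77-KO. At 0 h Socs3, Irf7 and Irf1 were among those lower in BMDM-Nur77-KO, and at 18 h Ifnb1, Socs1 and Irf1 were higher (3 of 21). By 18 h BMDM-Nur77-KO had responded more strongly in 9 of the 21 and less so in Ifnar1, a chain of the receptor. Among the 14 early NF-κB targets, 8 were higher in BMDM-Nur77-KO at 18 h and 11 had a larger response, so a larger response at 18 h was seen outside the interferon-induced genes too.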

How the data were processed

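Polyadenylated RNA of 32 cultures of BMDM was sequenced from strand-specific libraries. According to the methods of the study, the authors aligned reads to mm10 with HISAT2 2.1.0, kept alignments of mapping quality above 15 with SAMtools 1.16.1 and summed tags per RefSeq transcript with HOMER, without normalization. The values the authors deposited are expected counts (HOMER tag counts that were not normalized), since 1 mate of a pair adds 0.5 tag and 28.6% of the values are not whole. They were rounded here to whole numbers, the even one for ties. Of the 42361 transcripts, 42203 were named through RefSeq and 65 through GENCODE, and the 93 unnamed ones, 0.233 to 1.37% of tags per library, were left out.

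For each gene the most abundant transcript by mean count was taken, which was a choice among several for 17 members. Genes with a mean above 1 RPKM in at least 1 of the 8 groups were tested (11279), as in the methods of the study. Main tests were edgeR 4.0.16 quasi-likelihood tests with TMM factors and a mean for each of the 8 groups, all 32 libraries in 1 fit, with Benjamini-Hochberg adjustment over the 11279 genes. Calls needed a log2 fold change past 1 (LPS, time) or 0.58 (genotype) at an adjusted p under 0.05; the difference in response had no limit of size. Samples were grouped by their labels. DESeq2 1.42.0 (the tool of the study), other size factors, other filters, summed transcripts, the replicate number as a block and leaving out each library were alternatives; the plain library totals, the removal of a GC trend, the fit without 3 libraries and the change from 5 to 18 h were added after the data were seen. The main edgeR fit was tested on simulated counts for the genotype and response differences at 18 h and the BMDM-WT change at 5 h. The simulation had the same dispersion for all genes and no GC trend, and the alternatives were not tested in this way. The members and lists were chosen with earlier results of these data known.

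Members named with values were the 5 called ones with the largest change in each direction of each comparison, every member called in a test of response, and those with a known role. Library totals of 8742362 to 15780926 tags set the precision; the lowest count of a member in any library was 5. Promoter windows came from RefSeq (GRCm38.p6). No p-values over the members as a set were computed. Some items are not reported here.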

Additional observations from a re-analysis of the deposited data

Results flagged for a closer look

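In 168 groups of 4 libraries (21 members in 8 groups), 16 held a library whose gap to its nearest neighbour took up most of the range of the group (Dixon's ratio above its 95% critical value), a mark that chance gives in about 1 of 20 groups. BMDM-Nur77-KO 18 h replicate 4, which stood apart by GC content, gave 5 of them: high values of Ifit2 (17392 CPM), Isg20 (323) and Eif2ak2 (489) and low values of Isg15 (874) and Bst2 (308). BMDM-Nur77-KO 5 h replicate 1 was high for Isg20 (91.0 CPM) and Oas3 (382), and BMDM-WT 18 h replicate 3 was low for Bst2 (496). In BMDM-Nur77-KO at 0 h replicate 4 was high for Bst2 (50.4 CPM) and Ifitm3 (336) and replicate 2 low for Oas3 (21.7). In BMDM-WT at 0 h replicate 4 was low for Isg15 (6.53 CPM) and replicate 3 high for Zbp1 (14.4). At 1 h Mx2 was low in BMDM-WT replicate 3 (3.48 CPM) and high in BMDM-Nur77-KO replicate 4 (6.46), and at 5 h Oas1b was high in BMDM-Nur77-KO replicate 4 (22.8).

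The LPS response differed between the genotypes by the interaction term (edgeR, adjusted p under 0.05) in the members that follow, as log2 values of BMDM-Nur77-KO minus BMDM-WT. At 5 h these were Zbp1 (0.83), Oasl2 (0.83), Rtp4 (0.77), Ifit1 (0.72), Oas3 (0.57) and Tor3a (-0.31). At 18 h they were Mx2 (1.52), Ifit1 (1.29), Ifit3b (1.21), Cmpk2 (1.18), Isg15 (1.15), Zbp1 (1.11), Ifit2 (1.09), Rnf213 (1.04), Usp18 (1.02), Ddx58 (0.99), Trex1 (0.95), Rsad2 (0.93), Mx1 (0.93), Ifit3 (0.92), Xaf1 (0.91), Oas3 (0.90), Ifih1 (0.86), Oasl2 (0.85), Parp14 (0.83), Rtp4 (0.80), Slfn8 (0.80), Herc6 (0.67), Ifi35 (0.66), Dtx3l (0.56), Slfn2 (0.51) and Parp9 (0.40). For the change from 5 to 18 h they were Usp18 (1.04), Oasl1 (0.92), Isg15 (0.87), Rnf213 (0.84), Mx2 (0.76), Cmpk2 (0.64), Rsad2 (0.63), Ddx58 (0.58), Ifit1 (0.57), Ifi35 (0.56), Oas1a (0.55), Tor3a (0.54) and Slfn2 (0.41).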

How the results depend on the processing

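Of 283 called values of single members, 251 were lost under no alternative. Over 5454 values under alternatives, 5331 kept direction and call, 123 lost the call and 0 changed sign. Shares of all tested genes are given for the main fit with its limits only, not for counts under alternatives. The cause of each change below was not tested, except where the setting has another limit, fewer libraries or fewer genes by construction.

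With no limit on the log2 fold change the counts were 9 (1 h, BMDM-WT, for 4) and 15 (1 h, BMDM-Nur77-KO, for 7). From 5 to 18 h they were 22 lower (for 7) and 14 higher (for 6) in BMDM-WT and 16 lower (for 5) and 22 higher (for 8) in BMDM-Nur77-KO. For the genotype difference they were 18 lower at 0 h (for 8), 1 higher (for 0) and 2 lower (for 1) at 1 h, 6 higher and 9 lower at 5 h (for 2 each) and 26 higher at 18 h (for 6). With a limit of 1, 1 was lower at 0 h, 0 were higher and 1 lower at 5 h, and 0 were higher and 0 lower at 18 h. Without TMM scaling 4 (BMDM-WT) and 3 (BMDM-Nur77-KO) were lower from 5 to 18 h, 13 lower at 0 h, and 0 had a smaller response at 5 h.

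With the compared libraries alone, 1 was higher and 1 lower at 5 h, 4 had a larger response at 1 h, 1 at 5 h, and 0 a smaller one at 5 h. DESeq2 gave 1 larger response at 1 h, and without a filter 0 were smaller at 5 h. With the GC trend removed 1 was higher at 5 h, 10 had a larger response at 5 h and 24 a larger change from 5 to 18 h, and 36 a larger response at 18 h. Without the 3 libraries 1 was higher and 1 lower at 5 h, and 26 had a larger change from 5 to 18 h. A larger response at 1 h was called in 10, though the 3 libraries are not among those compared there.

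Leaving out single libraries gave 6 to 7 (1 h, BMDM-Nur77-KO), 44 to 45 (5 h, BMDM-Nur77-KO), 7 to 8 lower from 5 to 18 h in BMDM-WT, and 4 to 5 lower and 8 to 9 higher in BMDM-Nur77-KO. For genotype they gave 5 to 16 lower at 0 h, 1 to 5 higher and 1 to 4 lower at 5 h and 4 to 12 higher at 18 h. For the response they gave 2 to 7 larger and 0 to 1 smaller at 5 h, 25 to 30 larger at 18 h and 11 to 22 for the change from 5 to 18 h.

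The replicate numbers did not pair the samples: the deviations of libraries with the same number correlated between the genotypes at -0.423 to 0.305, above 0.1 in 7 of 16 cases. With the replicate block, 0 members had a smaller response at 5 h (for 1), and every other count stayed within 1.5 times. Low counts at 0 h limit Oasl1, Slfn1, Isg20 and Oas1b, whose differences in response at 18 h had an SE of 0.35, 0.45, 0.46 and 0.37 on the log2 scale.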
